A study of Homo sapiens with 4 samples.

Results

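The comparison was between human neurons induced from pluripotent stem cells and treated with 5-azacytidine and the same neurons left untreated, both carrying a non-targeting guide RNA. It used 2 of the 4 libraries of the series, chosen by their treatment labels: 1 azacytidine library and 1 control library. The study measured full-length transcripts by long-read PacBio sequencing of polyadenylated RNA, and its other 2 libraries carried a guide against TDP-43, with and without azacytidine. In the pair described here TDP-43 was not targeted. The cells came from a CRISPRi-i3N line derived from KOLF2.1J, an established induced pluripotent stem cell line. The line carries the neurogenic factor NGN2 under a promoter switched on by doxycycline, and it makes a dCas9-BFP-KRAB repressor at all times. Control and azacytidine cells alike received a lentivirus with the non-targeting guide, were selected with puromycin as a stable pool, grew as spheroids with doxycycline and were then plated. Azacytidine was given at 5 µM for 72 hours after the spheroids had attached. The harvest day of these libraries is not given in the labels. With 1 line, 1 pool and 1 library in each group there were no replicates to check a difference against, and every test compares these 2 libraries, not the conditions.

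Azacytidine is a cytidine analogue. Cells phosphorylate it and build it into RNA, and after reduction by ribonucleotide reductase also into DNA, where it traps DNA methyltransferases and lowers CpG methylation as DNA is copied. Neurons have left the cell cycle, while the progenitors that give rise to them still divide. Methylation itself was not measured in these files.

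A gene's level was its number of reads, and the 2 libraries were compared by the log2 ratio of azacytidine to control after scaling to library size, with 0.5 read added to each side. The control library held 595158 gene reads and the azacytidine library 466337. Genes averaging 20 or more reads over the 2 libraries were tested. A gene was called where an exact binomial test gave an adjusted p under 0.05 (Benjamini-Hochberg over all tested genes) and the log2 ratio was at least 1 in size. Intervals in brackets are 95% exact intervals of the log2 ratio without the added reads, and they cover counting error only.

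The libraries matched their label as neurons. All 28 pan-neuronal markers had reads in both, and their sum was 5056 reads in the control and 4000 with azacytidine, which is 8701 and 8374 CPM after scaling. Of 22 glutamatergic markers, the transmitter type of the cortical neurons named in the labels, 2 were at 0 in both libraries and the sum was 731 and 531 reads, and 2 of 10 tested were called lower and 0 higher, with a list median log2 ratio of -0.87. The 26 peripheral sensory neuron markers summed to more, 1982 and 1583 reads, with 3 at 0 in both libraries, and 2 of 16 tested were called lower and 1 higher. The shares over all tested genes were 10.3% lower and 6.22% higher. Of 10 microglia and myeloid markers, 8 were at 0 in both libraries, and none was tested. The 20 pluripotency markers summed to 467 control reads and 260 azacytidine reads, with 3 markers at 0 in each library, and 3 of 6 tested were called lower and 0 higher. The defining members POU5F1 and NANOG stood at 2 and 0 control reads and at 2 and 2 azacytidine reads, while DPPA4 had 48 and 6, SALL4 82 and 16 and DNMT3B 77 and 30. TARDBP, which encodes TDP-43, had 104 control reads and 73 azacytidine reads, a log2 ratio of -0.23 (-0.68 to 0.22), and was not called. Genes that mark other cell types also had reads in both libraries. The 33 neural progenitor markers summed to 2061 control reads and 532 azacytidine reads, and the 32 neural crest and mesenchymal markers to 493 and 254. In bulk RNA, fewer cells of a type and less RNA per cell cannot be told apart.

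Of 7962 genes tested, 1312 were called (16.5%), of which 495 were higher (6.22% of those tested) and 817 were lower (10.3%). Decreases were larger than increases. Among genes called with a log2 ratio of at least 2 in size, 45 were higher and 309 were lower, and at 3 or more 11 were higher and 144 lower. The median over all tested genes was 0.01. Genes of cell division, DNA replication, DNA repair, neural progenitors, growth factor receptors and basement membrane were among the groups with most genes called lower. Genes of the ATF4 stress response, the presynaptic terminal, ion channels and the axonal cytoskeleton were among the groups with most genes called higher. These groups stand by number of genes, not by share. Axonal cytoskeleton genes were called, in either direction, about as often as all tested genes, but more often higher and less often lower.

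**Figure D1:**
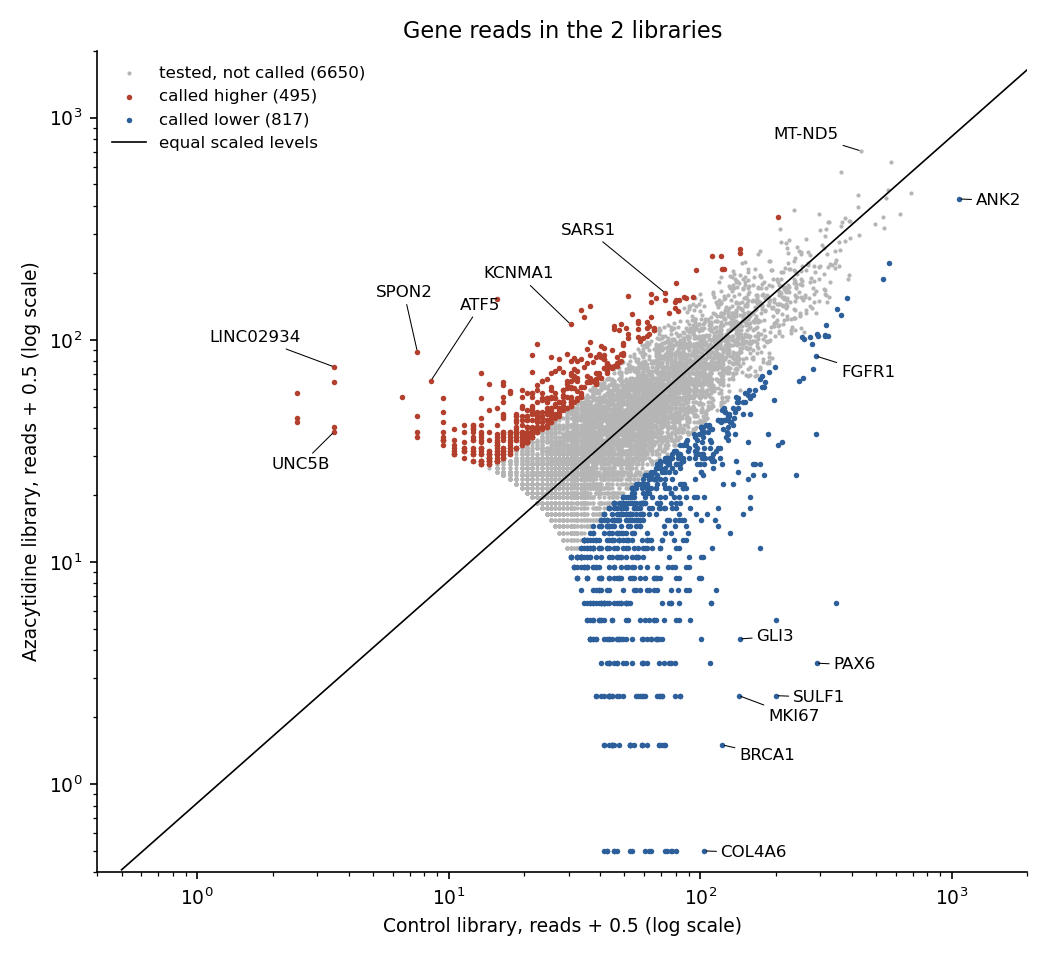
Reads of each tested gene in the control library (x axis) and the azacytidine library (y axis), both with 0.5 added and on log scales; the line marks equal scaled levels. The 495 genes called higher keep at least 2 control reads, while some of the 817 called lower reach 0 azacytidine reads.

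Cell division showed the most complete decrease. Of 31 tested genes of mitosis, 30 were called lower and 0 higher, and the median log2 ratio of the 38 members was -2.82. Here and below such medians run over list members averaging 5 or more reads. The list summed to 2515 control reads and 314 azacytidine reads. MKI67, the Ki-67 protein that coats mitotic chromosomes, had 142 control reads and 2 azacytidine reads, a log2 ratio of -5.55 (-8.93 to -3.99) with an adjusted p of 2.75e-31 in the exact binomial test. TOP2A, the topoisomerase that untangles sister chromatids, had 109 and 3 reads (log2 ratio -4.68, -7.20 to -3.32). KIF23, a motor of the central spindle, had 60 and 2 reads, and KIF11, the motor that separates the spindle poles, 76 and 3. These genes were chosen from the called members by size of change, and each had no more than 3 azacytidine reads. The kinase CDK1, which starts mitosis, had 50 control reads and 5 azacytidine reads. Condensin subunits moved unequally: SMC4 fell from 158 to 17 reads (log2 ratio -2.90, -3.75 to -2.21), while SMC2 had 122 and 54 reads (log2 ratio -0.89) and was the tested member not called. Neural progenitor markers, given above, were lower in sum in the same library, and their part in the lower mitotic genes was not tested. In the pair of libraries with the TDP-43 guide, MKI67 had 154 reads without azacytidine and 1 with it.

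Promoters of 3 mitotic genes are shown because these genes moved together. Cell cycle genes that peak in mitosis are known for the letters TTTGAA near their start, the core of the cell cycle genes homology region. Promoters were taken from RefSeq (GRCh38.p14), 250 bases before to 50 after each gene's start, and the letters were searched on both strands. They occurred in 21 of the 26 called mitotic genes that had a promoter in the table (80.8%), in 583 of 6326 tested protein-coding genes (9.22%) and in 15.4% of all 27305 promoters in the table. Below, capitals mark TTTGAA or its reverse complement TTCAAA. MKI67 is at chr10:128126374-128126673 on the minus strand, TOP2A at chr17:40417847-40418146 on the minus strand and KIF23 at chr15:69414099-69414398 on the plus strand.
MKI67: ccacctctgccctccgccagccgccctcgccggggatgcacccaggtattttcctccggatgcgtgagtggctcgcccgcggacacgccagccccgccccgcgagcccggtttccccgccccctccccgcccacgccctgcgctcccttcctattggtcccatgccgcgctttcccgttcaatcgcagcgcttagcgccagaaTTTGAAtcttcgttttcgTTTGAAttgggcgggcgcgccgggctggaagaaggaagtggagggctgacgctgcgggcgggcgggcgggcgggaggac
TOP2A: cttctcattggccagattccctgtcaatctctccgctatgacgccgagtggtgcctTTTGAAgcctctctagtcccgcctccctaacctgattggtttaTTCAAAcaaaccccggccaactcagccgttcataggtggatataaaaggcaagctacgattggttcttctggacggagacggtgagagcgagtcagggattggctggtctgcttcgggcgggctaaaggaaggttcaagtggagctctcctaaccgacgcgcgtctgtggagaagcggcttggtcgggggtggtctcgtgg
KIF23: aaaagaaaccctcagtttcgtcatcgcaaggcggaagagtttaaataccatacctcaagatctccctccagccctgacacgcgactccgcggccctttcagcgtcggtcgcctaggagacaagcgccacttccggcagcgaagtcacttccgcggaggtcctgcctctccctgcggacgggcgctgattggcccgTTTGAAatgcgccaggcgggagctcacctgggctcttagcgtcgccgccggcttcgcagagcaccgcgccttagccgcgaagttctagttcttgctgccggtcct
MKI67 and TOP2A each hold 2 matches and KIF23 holds 1. A match describes these letters and is not a measured binding site. Of the 635 protein-coding genes called lower with a promoter in the table, 118 held the letters (18.6%), and of the 346 called higher, 24 did (6.94%). The 118 include mitotic genes. The mitotic list is of the class known for these letters, so its 80.8% describes the list and not azacytidine.

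DNA replication fell as well, though less far. Of 25 tested genes, 16 were called lower and 0 higher, with a median log2 ratio of -1.36. RRM2, the ribonucleotide reductase subunit that supplies deoxynucleotides in S phase, had 79 control reads and 3 azacytidine reads (log2 ratio -4.22, -6.74 to -2.84). POLA1, the catalytic subunit of the polymerase that primes DNA, had 65 and 5 reads. MCM10, which helps to activate the replicative helicase, had 67 and 7 reads, and MCM5, a subunit of that helicase, 55 and 7. MCM6, another helicase subunit, had 39 and 19 reads and a log2 ratio of -0.74 (-1.63 to 0.07) and was not called.

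Of 24 tested DNA repair genes of the homologous recombination and Fanconi pathways, 12 were called lower and 0 higher, and the median log2 ratio was -1.15. BRCA1, which directs broken DNA to homologous repair, had 122 control reads and 1 azacytidine read, a log2 ratio of -6.07 (-11.96 to -4.14). BRCA2, which also acts in homologous repair, had 83 and 2 reads (log2 ratio -4.78, -8.16 to -3.19). The exonuclease EXO1 had 63 and 4 reads, and RAD54L, a motor of strand exchange, 58 and 3. In the pair with the TDP-43 guide BRCA1 had 100 reads without azacytidine and 27 with it, so the near absence of BRCA1 was seen in the non-targeting pair and not to that extent in the other.

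The genes that place and read DNA methylation moved unequally. UHRF1, which recognises hemimethylated DNA behind the fork, had 100 control reads and 8 azacytidine reads (log2 ratio -3.28, -4.61 to -2.33). HELLS, a remodeller needed for methylation of repeats, had 111 and 11, and CDCA7L, of the family of HELLS partners, 37 and 4. DNMT3B, a methyltransferase that sets new marks in stem cells, fell from 77 to 30 reads (log2 ratio -1.06, -1.74 to -0.45). DNMT1, the maintenance methyltransferase that azacytidine traps, had 81 and 47 reads and a log2 ratio of -0.50 (-1.05 to 0.03). DNMT3A had 116 and 87 reads. Neither DNMT1 nor DNMT3A was called. In all, 4 of the 19 tested genes of this list were called lower and 0 higher, with a list median of -0.14.

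Genes known to be silenced by methylation in body cells, such as germline genes, had few reads. None of the 26 on the list reached the read minimum, 15 were at 0 in the control and 18 with azacytidine, and the list summed to 51 and 14 reads. Interferon-stimulated genes and RNA sensors, 26 on the list, had 0 of 6 tested called higher and 2 lower. RIGI, a sensor of viral RNA, had 75 control reads and 25 azacytidine reads (log2 ratio -1.28, -2.02 to -0.63). Among imprinted genes, which are expressed from 1 parental allele, 2 of 17 tested were called higher and 3 lower. SNRPN had 96 and 205 reads (log2 ratio 1.37, 1.02 to 1.74) and NNAT, neuronatin, 22 and 47, while the zinc finger gene PLAGL1 had 59 and 2 reads (log2 ratio -4.29, -7.68 to -2.68). With the trend of the log2 ratio on transcript length removed, 0 of the 17 were called higher and 3 lower, and the log2 ratios of SNRPN and NNAT were 0.96 and 0.88.

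Carriers and enzymes that handle the drug itself were called about as often as all tested genes (16.5%), with 3 of 17 called lower and 0 higher. Azacytidine enters by nucleoside carriers such as SLC29A1, which had 34 control reads and 50 azacytidine reads (log2 ratio 0.83). The uridine-cytidine kinases UCK1 and UCK2, which phosphorylate it, had 38 and 35 and 42 and 28 reads. None of the 3 was called. Cytidine deaminase (CDA), which inactivates it, had 0 reads in both libraries. The members called lower were RRM2, the thymidylate synthase TYMS (40 and 6) and RRM1, the large subunit of ribonucleotide reductase (79 and 25).

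Polycomb and histone methylation genes had 3 of 27 tested called lower and 2 higher, beside 10.3% and 6.22% of all tested genes. The list thus stood close to all tested genes. EZH2, the histone H3 methyltransferase of Polycomb in dividing cells, had 129 and 35 reads (log2 ratio -1.58, -2.18 to -1.05) and SUV39H2 had 51 and 14. The Polycomb subunit PHC2 had 32 and 67 reads (log2 ratio 1.34, 0.72 to 2.00).

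Many neural progenitor genes were lower. Of 21 tested, 13 were called lower and 0 higher, with a median log2 ratio of -2.52 over 29 members, or -2.41 with the 4 members at 0 azacytidine reads set to 3 reads. PAX6, the homeodomain factor of cortical radial glia, had 290 control reads and 3 azacytidine reads, a log2 ratio of -6.09 (-8.60 to -4.75) with an adjusted p of 7.29e-67 in the exact binomial test. SOX1, a marker of early neuroectoderm, had 41 control reads and 0 azacytidine reads, which is at least 11.2-fold lower when 0 is set to 3 reads. GLI3, a transcription factor of the hedgehog pathway, had 143 and 4 reads, and the chromatin protein HMGA2 had 59 and 3. Some widely used progenitor markers were not called. NES (nestin) had 64 and 36 reads (log2 ratio -0.54, -1.18 to 0.06), and MSI1 had 63 and 53 reads (log2 ratio 0.04, -0.52 to 0.58). The list therefore held members close to 0 azacytidine reads beside members near their control level. With an assumed coefficient of variation of 0.2 between libraries of a group (edgeR's exact test), 29 of 31 mitotic, 8 of 25 replication and 12 of 21 progenitor genes were called lower, and with 0.4 the counts were 5, 1 and 4.

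**Figure D2:**
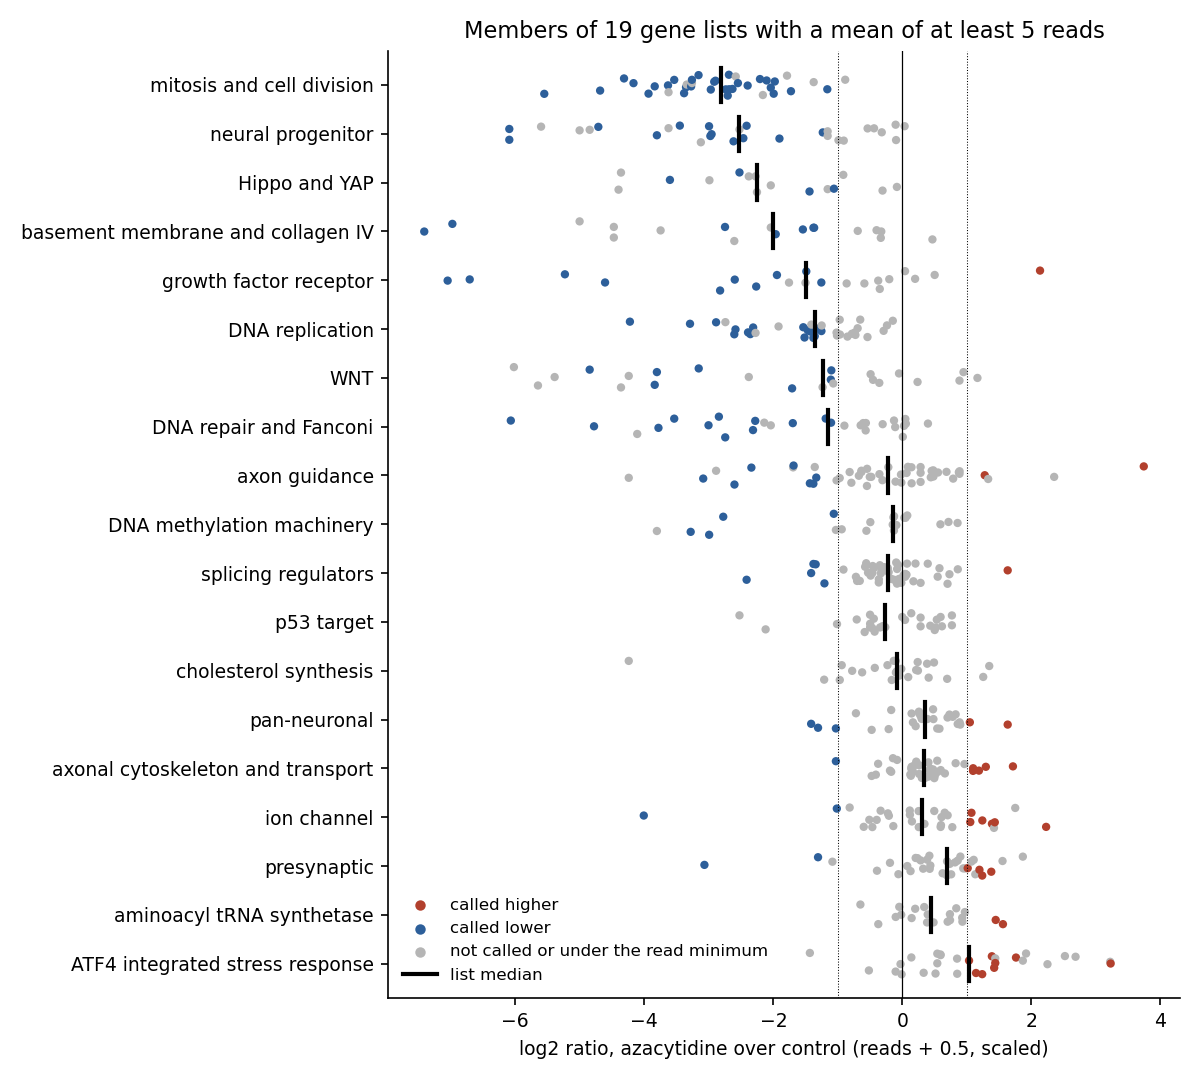
Log2 ratio of azacytidine to control for each member (points) of 19 gene lists, for members averaging 5 or more reads; bars mark list medians and dotted lines a log2 ratio of 1 in either direction. Mitosis stands lowest with a median of -2.82 and the ATF4 stress response highest with 1.03.

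Receptors, their ligands and matrix genes were often lower. The list of growth factor receptors and their ligands had 10 of 17 tested genes called lower and 1 higher, with a median of -1.49. ERBB4, a neuregulin receptor, had 80 control reads and 0 azacytidine reads, at least 21.9-fold lower with 0 set to 3 reads. KITLG, the ligand of KIT, had 63 and 0 (at least 17.3-fold lower), and the fibroblast growth factor receptor FGFR2 had 68 and 1 (log2 ratio -5.23, -11.13 to -3.28). NTRK2, the receptor for BDNF, had 90 and 10 reads (log2 ratio -2.82, -4.00 to -1.94). These receptors and the ligand were chosen from the called members by size of change.

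Of 11 tested WNT pathway genes, 7 were called lower and 0 higher. The ligand WNT8B had 52 control reads and 1 azacytidine read, the receptor FZD7 had 70 and 6, and the transcription factor TCF7L2 had 110 and 6. The secreted antagonist SFRP2 had 43 and 2 reads. These WNT genes were chosen from the called members by size of change, so their shared direction does not describe the pathway. In the Hippo pathway 4 of 6 tested genes were called lower, among them YAP1, the coactivator held back by the pathway, with 66 and 4 reads, and its DNA-binding partner TEAD2 with 87 and 12.

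Basement membrane genes, which build the sheet that underlies neuroepithelium, had 7 of 12 tested members called lower and 0 higher. COL4A6 had 103 control reads and 0 azacytidine reads, the gene with the smallest log2 ratio in the comparison and at least 28.2-fold lower with 0 set to 3 reads. COL4A5, which lies head to head with COL4A6 on chromosome X, had 76 and 0 reads (at least 20.8-fold lower). The laminin chain LAMA1 had 69 and 8 reads and the collagen COL18A1 73 and 15. The list median was -1.83 with 5 members at 0 set to 3 reads. Fibronectin (FN1), in the mesenchymal list, had 98 and 8 reads, while the collagen VI chain COL6A1 had 41 and 81 (log2 ratio 1.26, 0.71 to 1.84). Endothelial markers summed to 60 control reads and 14 azacytidine reads, with 4 and 6 of 11 markers at 0. Epithelial markers summed to 53 and 68 reads. The part of these other cell types in the lower genes was not tested.

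The 12 genes with the largest decrease all had 0 azacytidine reads. Beside COL4A6, ERBB4, COL4A5 and KITLG they were MECOM (77 control reads), a zinc finger factor of stem cells, FAM153A (72), LINC00398 (60), RFX4 (46), a neural tube transcription factor, SYTL2 (45), GCOM1 (45), MCTP1 (42) and the kinase gene LRRK2 (42). Their lower bounds ran from 11.5-fold for MCTP1 and LRRK2 to 28.2-fold for COL4A6. FAM153A has near-identical copies and GCOM1 is a read-through locus, so their counts are uncertain. In the pair with the TDP-43 guide COL4A6 and KITLG also went to 0 azacytidine reads, from 114 and 230. LINC00398 was at 0 in both of those libraries, and LRRK2 had 10 reads without and 15 with azacytidine.

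**Figure D3:**
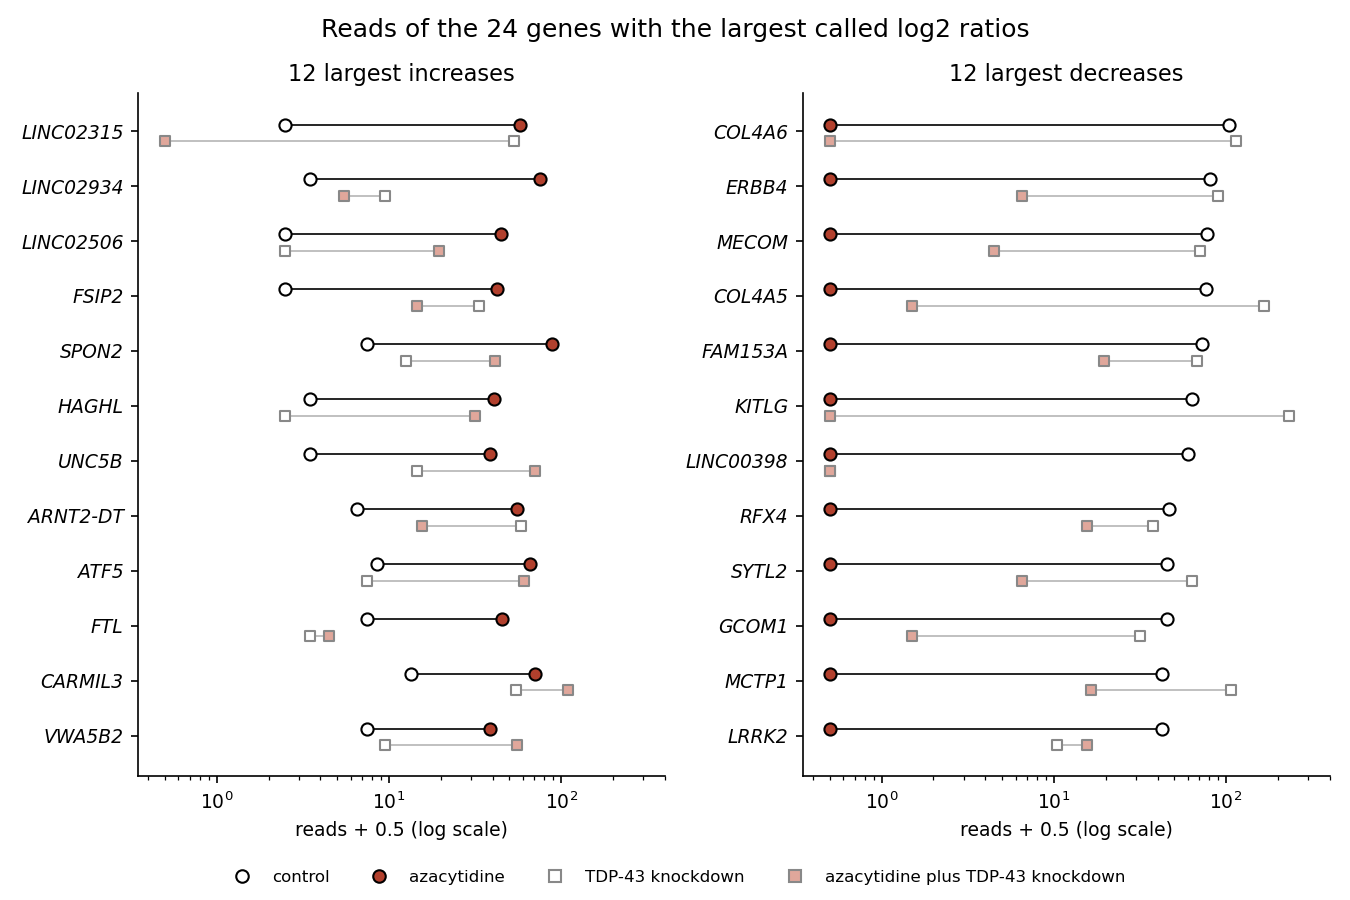
Reads (plus 0.5, log scale) of the 12 genes with the largest and the 12 with the smallest log2 ratio, in control and azacytidine (circles) and in the pair with the TDP-43 guide (squares). All 12 decreases end at 0 azacytidine reads, and 5 genes with reads in both pairs have opposite directions in them: LINC02315, LINC02934, FSIP2, ARNT2-DT and LRRK2.

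On the other side, the 12 genes with the largest increase had between 2 and 13 control reads. They included the long non-coding RNAs LINC02315 (2 and 57 reads), LINC02934 (3 and 75), LINC02506 (2 and 44) and ARNT2-DT (6 and 55). The protein-coding genes were FSIP2, a sperm tail protein (2 and 42), SPON2, a secreted matrix protein (7 and 88), HAGHL (3 and 40), UNC5B, a netrin receptor (3 and 38), ATF5 (8 and 65), FTL, the ferritin light chain (7 and 45), CARMIL3, an actin regulator (13 and 70), and VWA5B2 (7 and 38). Their log2 ratios ran from 2.64 for VWA5B2 to 4.81 for LINC02315. FTL has many processed copies in the genome and its count is uncertain. SPON2, HAGHL, UNC5B, ATF5 and VWA5B2 were also higher with azacytidine in the pair with the TDP-43 guide, with 12 and 41, 2 and 31, 14 and 70, 7 and 60, and 9 and 55 reads. LINC02315 (53 and 0), ARNT2-DT (58 and 15), FSIP2 (33 and 14) and LINC02934 (9 and 5) were lower with azacytidine there.

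Cells switch on the ATF4 programme of the integrated stress response when amino acids run short or translation initiation is blocked, and many of its genes were higher with azacytidine. Of 19 tested genes, 8 were called higher and 0 lower, with a median log2 ratio of 1.03 over 29 members. The list summed to 845 control reads and 1291 azacytidine reads. ATF5, a stress-induced transcription factor, had 8 control reads and 65 azacytidine reads, a log2 ratio of 3.23 (2.24 to 4.58) with an adjusted p of 5.64e-13 in the exact binomial test. SHMT2, which makes glycine in mitochondria, had 23 and 65 reads (log2 ratio 1.76, 1.08 to 2.54). CEBPG, a dimer partner of ATF4, had 32 and 72, and SLC7A5, a carrier of large amino acids, 41 and 91. These 4 genes were chosen from the called members by size of change. Members below the read minimum were not tested. TRIB3, a pseudokinase, had 9 and 29 reads, the factor DDIT3 (CHOP) 3 and 18, and ATF4 itself 12 and 18 (log2 ratio 0.85, -0.27 to 2.05). Not all targets moved: ASNS, asparagine synthetase, had 25 and 19 reads (log2 ratio -0.10, -1.05 to 0.81). In the pair with the TDP-43 guide ASNS had 11 reads without and 66 with azacytidine. With an assumed coefficient of variation of 0.2 between libraries (edgeR's exact test) 2 of the 19 genes were called, and with 0.4 the count was 0.

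Among 20 aminoacyl tRNA synthetases, enzymes that load amino acids onto tRNA, 2 were called higher and 0 lower. The shares over all tested genes were 6.22% higher and 10.3% lower. WARS1 (tryptophan) had 48 and 117 reads (log2 ratio 1.56, 1.07 to 2.08) and SARS1 (serine) had 72 and 162 (log2 ratio 1.45, 1.04 to 1.87). The list median was 0.44. Neighbouring stress programmes showed few calls: 1 higher and 1 lower of 17 tested in the unfolded protein response, 0 of 10 in heat shock and 0 of 13 among p53 targets. CDKN1A, the p53 target that stops the cell cycle, had 14 reads in each library, below the minimum for a test.

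Single pan-neuronal genes moved both ways. Of 27 tested, 2 were called higher and 3 lower, a share close to the 16.5% of all tested genes, with a median log2 ratio of 0.34. RBFOX3 (NeuN), a splicing factor of mature neurons, had 35 control reads and 90 azacytidine reads (log2 ratio 1.63, 1.07 to 2.25). THY1, a neuronal surface protein, had 21 and 36. ANK2, the ankyrin of axons, had 1069 and 430 reads (log2 ratio -1.03, -1.20 to -0.87), and RBFOX1 had 134 and 41. GAP43, the growth cone protein, had 118 and 181 reads (log2 ratio 0.90) and DCX, the microtubule protein of young neurons, 247 and 250, and neither was called. The most read pan-neuronal gene and the classical maturity marker thus stood on opposite sides.

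Among presynaptic genes 4 of 29 tested were called higher and 2 lower (median 0.69), among ion channels 6 of 26 higher and 2 lower (median 0.30), and among axonal cytoskeleton and transport genes 5 of 39 higher and 1 lower (median 0.33). Over all tested genes 6.22% were called higher and 10.3% lower, 16.5% together. In either direction the axonal list stood close to that 16.5%, with a larger share called higher and a smaller share called lower. KCNMA1, the large-conductance potassium channel opened by calcium, had 30 and 117 reads (log2 ratio 2.23, 1.66 to 2.88). CACNB2, a calcium channel subunit, went the other way with 68 and 3 reads (log2 ratio -4.01, -6.53 to -2.61). SYN3, a synapsin, had 25 and 54 reads. Neurexins, presynaptic adhesion proteins, included NRXN3, called lower with 76 and 7 reads, and NRXN2, called higher with 42 and 70. DYNC1H1, the dynein heavy chain, had 203 and 357 reads (log2 ratio 1.10, 0.84 to 1.35).

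Axon guidance genes had 7 of 38 tested called lower and 2 higher. The netrin receptor DCC had 46 control reads and 4 azacytidine reads and the repellent SLIT2 had 212 and 34. UNC5B, another netrin receptor, had 3 and 38, and the adhesion protein L1CAM had 63 and 126 (log2 ratio 1.28, 0.84 to 1.74). Among splicing regulators 5 of 48 were called lower and 1 higher, beside 10.3% and 6.22% of all tested genes. The share called lower was thus close to that of all tested genes. QKI, which is abundant in glia and progenitors, had 100 and 15 reads, and PTBP1, a repressor of neural exons, had 147 and 52 (log2 ratio -1.21, -1.70 to -0.75). RBFOX3 was the splicing regulator called higher. Of 26 genes known to gain cryptic exons when TDP-43 is lost, 24 were tested, and 2 were called higher and 0 lower. Their best known members were not called: STMN2, a growth cone protein, had 117 and 140 reads (log2 ratio 0.54) and UNC13A, a vesicle priming factor, 32 and 44 (log2 ratio 0.74).

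Genes of the mitochondrial genome, which encode subunits of the respiratory chain, were higher in 4 of 6 tested, with 0 lower and a median of 0.90. MT-ND4 had 32 control reads and 80 azacytidine reads (log2 ratio 1.59, 1.00 to 2.24). MT-ND5, the mitochondrial gene with most reads, had 436 and 707 (log2 ratio 0.98, 0.81 to 1.16). In the pair with the TDP-43 guide the values went the other way, with 27 and 13 reads for MT-ND4 and 514 and 256 for MT-ND5. With the trend of the log2 ratio on transcript length removed, 1 of the 6 was called.

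Transcript length moved with the comparison, and so did the share of complete reads. Full-length reads made up 28.2% of control and 35.7% of azacytidine transcript reads, and the mean length of the transcripts to which reads were assigned was 4941 and 4646 bases. Genes called higher had a median transcript length of 2567 bases, genes called lower 4559 and all tested genes 3942. Among 803 genes of 1000 to 2000 bases 18.9% were called higher and 5.35% lower, and among 747 genes over 8000 bases 1.74% and 12.7%. The 46 genes under 1000 bases had the highest shares both ways, 30.4% called higher and 19.6% lower. With the length trend removed 403 genes were called higher and 810 lower, among them 30 of 31 mitotic and 13 of 21 progenitor genes lower and 8 of 19 ATF4 genes higher.

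**Figure D4:**
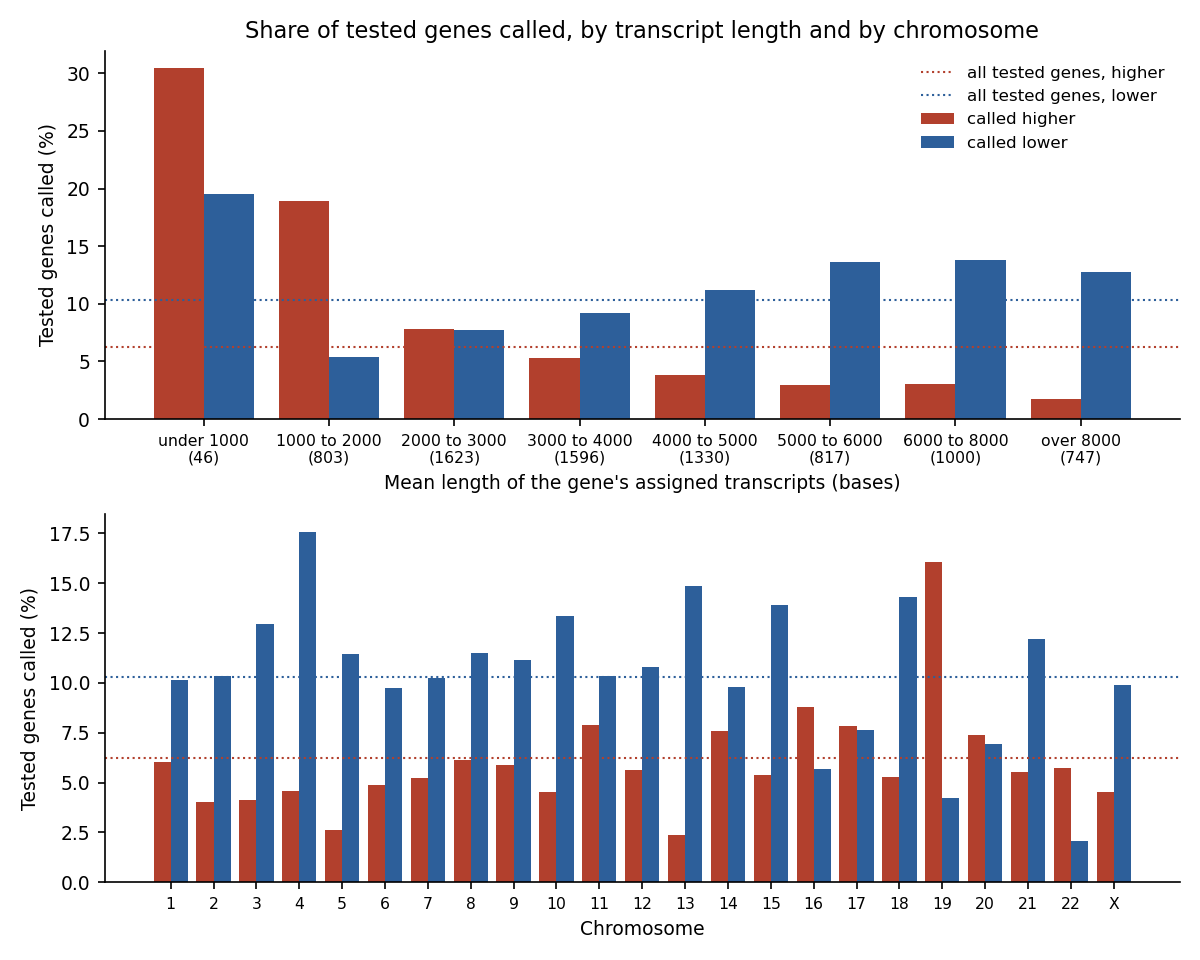
Percent of tested genes called higher and lower by transcript length (top, number of genes in brackets) and by chromosome (bottom); dotted lines give the percent over all tested genes. Calls higher fall from 30.4% under 1000 bases and 18.9% at 1000 to 2000 to 1.74% over 8000, and reach 16.1% on chromosome 19. Calls lower are 19.6% under 1000 bases and reach 17.6% on chromosome 4.

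Chromosomes differed too. On chromosome 19, 16.1% of 448 tested genes were called higher and 4.24% lower, with a median log2 ratio of 0.34. On chromosome 22 the median was 0.33, with 2.08% of 192 genes called lower. Chromosome 4 had 4.56% of 307 genes called higher and 17.6% lower. Genes of chromosome 19 had a median transcript length of 3416 bases. With the length trend removed 11.2% of them were called higher and 3.79% lower, and the median was 0.28. By the number of CpG in the RefSeq promoter, 17.9% of 312 protein-coding genes with 0 to 5 CpG were called lower and 4.49% higher, against 8.47% and 6.59% of 1593 genes with over 35.

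The isoform comparison asked whether a gene's reads were divided otherwise among its transcripts. A transcript's share was its reads over all transcript reads of its gene. Shares were tested with Fisher's exact test, adjusted over all transcripts tested (Benjamini-Hochberg), and called where the adjusted p was under 0.05 and the share changed by at least 10 percentage points. Of 10711 transcripts tested in 5318 genes, 887 were called (8.28%): 397 had a higher share with azacytidine (3.71%) and 490 a lower one (4.57%). They belonged to 613 genes, of which 83 were also called in level, beside 661 of all 5318. Transcripts grouped by overlapping first exons gave 382 of 4858 start groups called (7.86%), 184 higher (3.79%) and 198 lower (4.08%). Groups by overlapping last exons gave 49 of 2773 called (1.77%), 27 higher (0.974%) and 22 lower (0.793%). Exons outside the annotation gave 7 of 88 loci called (7.95%), 4 higher (4.55%) and 3 lower (3.41%). Only 55.5% of control and 59.3% of azacytidine transcript reads were uniquely assigned, and the others were divided among transcripts by the authors' program. With uniquely assigned reads alone 53 transcripts, 25 start groups, 12 end groups and 0 loci were called (Fisher's exact test; 3 loci at an unadjusted p under 0.05, and 1 locus with full-length reads). Calls that held both ways in the same direction numbered 42 transcripts, 21 start groups and 7 end groups, together in 35 genes. The genes described next were taken from these after their values were seen.

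PKM, the pyruvate kinase of glycolysis, changed between its 2 alternative exons. The M1 exon marks the adult muscle and neuron form and the M2 exon the form of dividing cells. Both exons have 167 bases and differ at 62 of them. The 2 sequences are shown because reads can tell the forms apart only there. They are read from GENCODE transcripts on hg38, minus strand, with the bases that differ in capitals. The M1 exon is at chr15:72203022-72203188 and the M2 exon at chr15:72202454-72202620.
PKM M1 exon: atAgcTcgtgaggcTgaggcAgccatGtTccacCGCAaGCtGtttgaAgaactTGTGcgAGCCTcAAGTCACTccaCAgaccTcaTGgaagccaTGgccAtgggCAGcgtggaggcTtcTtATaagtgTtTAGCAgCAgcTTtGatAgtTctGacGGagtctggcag
PKM M2 exon: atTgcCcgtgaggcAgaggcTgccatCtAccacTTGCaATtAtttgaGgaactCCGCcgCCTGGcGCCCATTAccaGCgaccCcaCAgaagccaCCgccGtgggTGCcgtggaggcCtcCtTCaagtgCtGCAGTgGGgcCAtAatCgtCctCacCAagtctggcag
Transcripts with the M1 exon took 33.7% (25.8 to 43.1) of PKM transcript reads in the control and 61.4% (51.4 to 69.7) with azacytidine. Those with the M2 exon took 66.3% (56.9 to 74.2) and 37.7% (29.4 to 47.6). These are 95% Wilson intervals, over 112 and 105 transcript reads, and those of the 2 libraries did not overlap. Uniquely assigned reads with the M1 exon numbered 17 and 33, and with the M2 exon 43 and 17. The main M2 transcript, ENST00000335181.10, fell from 68 of 112 to 36 of 105 reads (adjusted p 0.00328 in Fisher's exact test). In the pair with the TDP-43 guide the M1 share was 35.7% without and 50.9% with azacytidine. The level of PKM was not called (log2 ratio -0.26).

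Other genes changed their first exon. ATP1B1, the beta subunit of the sodium pump, began at 2 places on chromosome 1, with first exons at 169105697 to 169105815 and at 169106670 to 169106926. The upstream start had 0 of 58 reads in the control and 67 of 74 with azacytidine, and the downstream start 57 and 7. Of uniquely assigned reads, the upstream start had 0 and 47, and 0 of its reads were full-length in either library. The upstream start had 0% of the reads in both libraries with the TDP-43 guide, so it was seen in the azacytidine library of this pair alone. TPM1, a tropomyosin that lines actin filaments, had 59 of 84 reads from its distal start in the control and 11 of 41 with azacytidine, and 14 and 29 from an internal start. Uniquely assigned reads gave 37 and 5 for the distal start, and 12 and 20 for the internal start. ONECUT1, a homeodomain transcription factor, had 73 of 84 reads at an upstream first exon of an unannotated transcript in the control and 30 of 60 with azacytidine, and nearly all of these reads were uniquely assigned (73 and 29). In the pair with the TDP-43 guide that exon's share was 64.7% without and 73.1% with azacytidine.

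Inside genes, HNRNPLL, an RNA-binding splicing regulator, changed its main transcript: ENST00000449105.8 had 62 of 88 reads in the control and 2 of 71 with azacytidine (31 and 0 uniquely assigned), and ENST00000608859.5 had 0 and 36 (0 and 24 uniquely assigned). No read of ENST00000608859.5 was full-length in either library. In the pair with the TDP-43 guide it had 0% of reads in both libraries. ENST00000449105.8 had 55.6% there without and 46.5% with azacytidine. GTF2I, a general transcription factor, had 47 of 190 reads and 82 of 147 in ENST00000573035.6 (21 and 43 uniquely assigned). GTF2I has near-identical copies and its counts are uncertain. The kinase gene CSNK1A1 had 134 of 347 and 56 of 272 reads in ENST00000657001.1, and 134 and 151 in ENST00000377843.8. KIF2A, a microtubule depolymerising kinesin, had 29 of 131 and 66 of 115 reads in ENST00000407818.8. PICALM, an adaptor of clathrin coats, had 55 of 129 and 71 of 103 in ENST00000393346.8. The levels of HNRNPLL, GTF2I, CSNK1A1, KIF2A and PICALM had log2 ratios between -0.20 and 0.00, so shares changed in genes whose total stood nearly level.

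**Figure D5:**
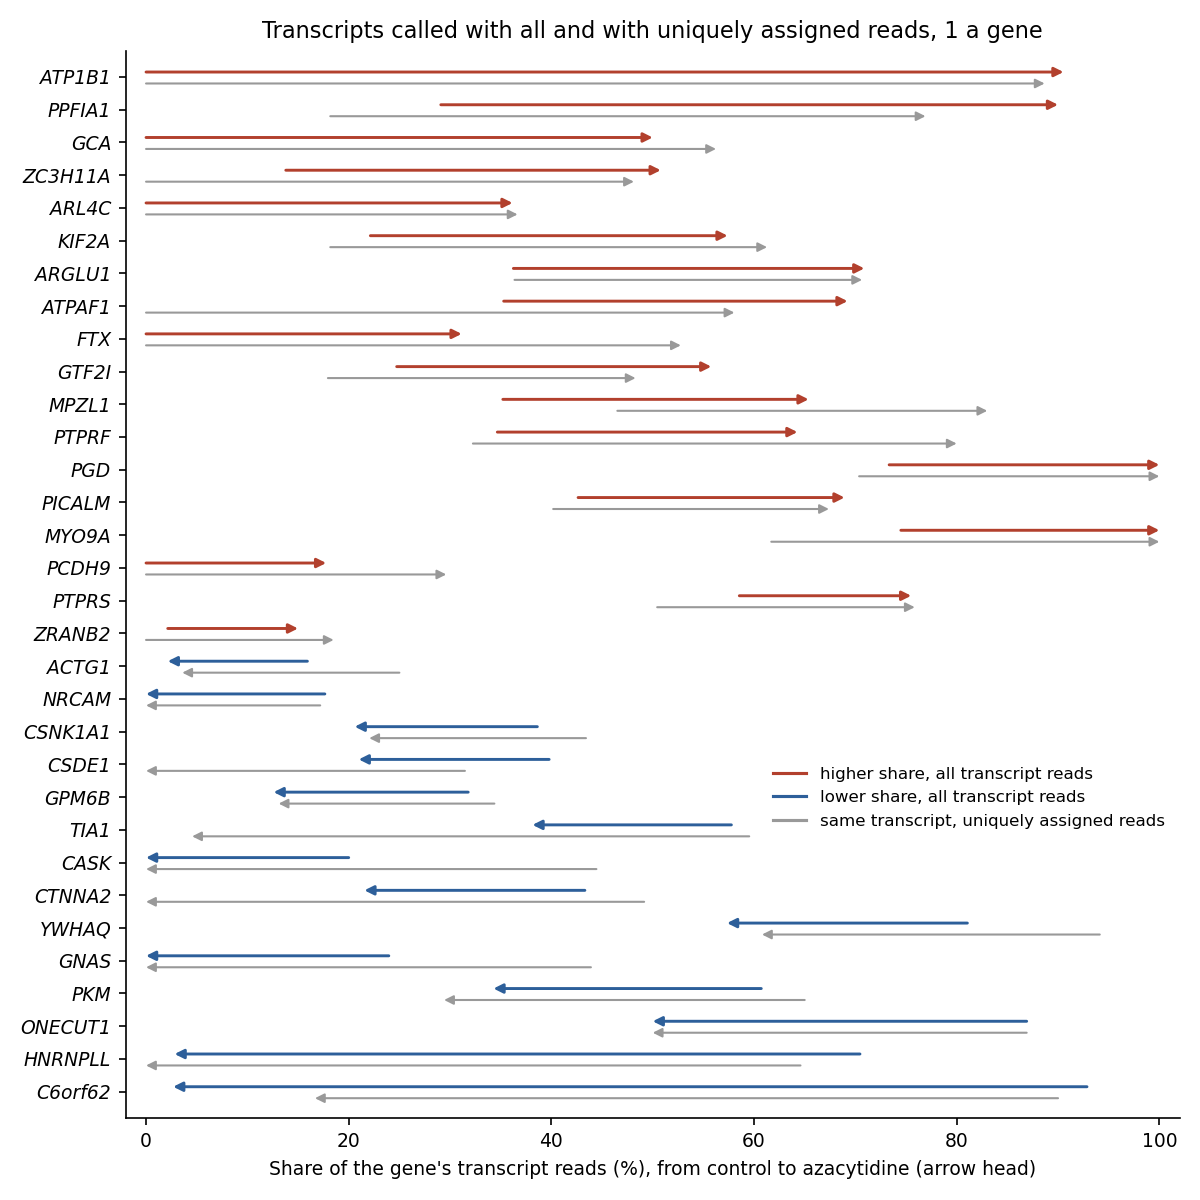
Share of the gene's transcript reads (x axis, percent) from control to azacytidine (arrow head) for transcripts called with all reads and with uniquely assigned reads, the one with the largest change in each of 32 genes; grey arrows use uniquely assigned reads. ATP1B1 has the largest rise, from 0% to 90.5%, and C6orf62 the largest fall, from 92.9% to 2.68%.

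The largest changes of share over all transcripts rested mostly on divided reads. MDM4, an inhibitor of p53, had 0 of 40 reads in ENST00000367182.8 in the control and 19 of 19 with azacytidine, with 0 and 1 uniquely assigned. CECR2, a bromodomain protein, had 27 of 27 and 0 of 23 reads in ENST00000612582.1, with 1 and 0 uniquely assigned. ALDH1L2, a mitochondrial folate enzyme, had 0 of 9 and 36 of 39 reads in ENST00000258494.14, with 0 and 2. PLEC, MTMR1 and TCF7L2 had 0 to 4 uniquely assigned reads behind such a change, RWDD4 had 0 and 10 and PRPF4 had 19 and 0. C6orf62 differed: full-length reads in ENST00000710317.1 numbered 81 in the control and 1 with azacytidine, and in ENST00000378119.9, with another first exon, 0 and 78. Lower shares in NBPF12, NBPF20 and RAVER2 had 1, 4 and 11 control reads and 0 azacytidine reads uniquely assigned. NBPF12 and NBPF20 belong to a family of near-identical copies.

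Among last exons the largest changes were in the ribosomal protein gene RPS20 (0 of 55 and 21 of 23 reads at the higher group, 0 and 0 uniquely assigned), the RNA methyltransferase NSUN6 (2 of 25 and 14 of 18), RBM15 (1 of 41 and 19 of 28) and NDUFB8 (6 of 22 and 25 of 31). RPS20 has processed copies and is uncertain, and its higher group had 96.7% of reads without and 4.30% with azacytidine in the pair with the TDP-43 guide. The higher group of RBM15 had 0 and 0 uniquely assigned reads, that of NSUN6 1 and 3 and that of NDUFB8 2 and 10. With the TDP-43 guide the RBM15 group had 9.4% of reads without and 8% with azacytidine. The NDUFB8 group had 46.6% and 38.3% there, and the NSUN6 group 15.1% and 47.9%. Among unannotated exons, the last exon of LRRC49 had 7 of 31 reads in the control and 28 of 41 with azacytidine (4 and 20 uniquely assigned). An internal exon of MAP7D2, a microtubule-binding protein, had 20 of 34 and 22 of 22 (10 and 11 uniquely assigned). With the TDP-43 guide the MAP7D2 exon had 90.9% of reads without and 90.6% with azacytidine, while the LRRC49 exon had 6.17% and 25.3%. A first exon of the guidance cue SEMA3A had 7 of 101 and 11 of 32, and an internal exon of LUC7L2 had 2 of 108 and 9 of 68. The shares of the SEMA3A and LUC7L2 exons were also higher with azacytidine in the pair with the TDP-43 guide. First exons of HIP1 (63 of 64 and 21 of 48), FAM20B (24 of 24 and 10 of 19) and SCYL3 (10 of 24 and 0 of 16) lost share. HIP1 had 1 uniquely assigned read in each library, FAM20B 2 in each and SCYL3 4 and 0. In the pair with the TDP-43 guide the FAM20B exon had 22.2% of reads without and 60% with azacytidine. The shares of the HIP1 and SCYL3 exons were lower with azacytidine there. Over the whole libraries unannotated transcripts took 7.08% (7.00 to 7.16) of transcript reads in the control and 7.97% (7.88 to 8.07) with azacytidine.

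The pair with the TDP-43 guide shares no library with this one. Here it was read for direction and for genes called by the same rule. Of the 495 genes called higher here, 421 (85.1%) had a log2 ratio above 0 there, against 65.8% of 4049 tested genes above 0 here. Of 816 genes called lower here with a read there, 754 (92.4%) were below 0, against 74.1% of 3912 tested genes below 0 here. Of all 1312 called genes, 689 were called the same way there and 21 the opposite way. In that pair the 2 libraries differed in the same technical measures: 23.3% and 31.2% of transcript reads were full-length, and the mean transcript length was 5341 and 4829 bases. The part of length and completeness in the shared direction was not tested.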

How the data were processed

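Polyadenylated RNA of the 2 libraries was reverse transcribed with MarathonRT and sequenced by a modified PacBio Iso-Seq protocol, per the labels' protocols. Reads were placed on hg38, per the submitters' processing notes, with minimap2, per the file headers, and transcripts were named by Bambu, per the deposited annotation; versions are not given in the sources used here. The authors deposited estimated counts per gene and per transcript, counts of full-length and uniquely assigned reads, and CPM, which was used only for a check of the gene counts. Every deposited gene count was within 0.00031 of an even number, and none of the unique counts was odd. All counts were therefore divided by 2 to give reads, and the estimated counts were then rounded. Estimated transcript counts hold reads divided among transcripts and were not all even. The planned design had assumed 1 count a read.

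Gene reads were scaled by TMM (edgeR 4.0.16, R 4.3.3) within each pair of libraries. Levels were tested with a two-sided exact binomial test (SciPy 1.17.1) and transcript shares with Fisher's exact test. Both were adjusted by Benjamini-Hochberg (statsmodels 0.14.6). Transcript features needed 10 reads in the pair. Depth was 595158 and 466337 gene reads and 380226 and 317711 transcript reads, and PCR copies are not marked, so intervals cover counting error only. The tests were checked on simulated reads that held counting error only. That check cannot show how the tests act where libraries of a group vary. Symbols came from GENCODE, whose exons were the same for 99.96% of 166654 shared transcripts (release 29). Whether counting used strand is not given in the sources used here.

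Members and the 55 gene lists were chosen with earlier results of these data known. Genes named were the 12 with the highest and lowest called log2 ratio, up to 4 called members of each list by size of change (or the 2 with most reads where none was called), TARDBP, and the transcripts (8), start groups (6), end groups and loci (4 each) with the largest called change each way, 1 a gene; genes without a symbol were left out. Other genes were named after their values were seen. Alternatives were total and DESeq2 (1.42.0) scaling, other read minimums and pseudocount, counts not halved, unique or full-length reads, assumed biological variation, an additive fit of the 4 libraries and removal of the length trend. A few genes are not reported here.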

Additional observations from a re-analysis of the deposited data

Results flagged for a closer look

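LINC02315 and ARNT2-DT, both non-coding RNAs among the 12 largest increases, had opposite signs in the 2 pairs of libraries. LINC02315 had a log2 ratio of 4.81 with the non-targeting guide and of -6.24 with the TDP-43 guide, where its reads numbered 53 without azacytidine and 0 with it. ARNT2-DT had log2 ratios of 3.38 and -1.42. These 2 were, of the 24 genes with the largest changes, those called in opposite directions in the 2 pairs. FSIP2 (-0.71), LINC02934 (-0.29) and LRRK2 (1.06) also had the opposite sign with the TDP-43 guide. Each condition had 1 library, and the difference between the pairs was not tested.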

How the results depend on the processing

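No paired analysis was possible because each group holds 1 library and all labels carry the replicate number 1. Against 1312 genes called, the count was 2342 with a mean of at least 5 reads, 2012 with no filter on low counts, 2503 with counts not halved, 222 with uniquely assigned reads, 36 with full-length reads, 478 and 85 with edgeR's exact test at an assumed coefficient of variation of 0.2 and 0.4, and 780 in an additive edgeR fit of the 4 libraries; 0 calls were opposite in any of these. Lower genes were 62.3% of calls, and 78.8% with unique reads, 80.3% and 91.8% at the assumed variation of 0.2 and 0.4. Transcripts called numbered 53 with unique reads, 18 with full-length reads, 431 in genes with a mean of at least 50 transcript reads and 3422 with counts not halved. Start groups numbered 25, 12, 190 and 1556 in the same order, and end groups 12, 0, 23 and 454 (Fisher's exact test; of 297 end groups tested with full-length reads, 5 had an unadjusted p under 0.05). Unannotated loci numbered 0 with unique reads (3 of 26 at an unadjusted p under 0.05), 1 with full-length reads and 56 with counts not halved. Unannotated transcripts took 7.95% and 9.15% of unique reads, and 10.2% and 11.0% of full-length reads, in control and azacytidine. Of 155 named genes with a test, calls were lost for 54 and 109 at the assumed variation of 0.2 and 0.4, 45 in the additive fit and 13 with the length trend removed. The sign turned for MTHFD2 (log2 ratio -0.27 with full-length reads) and ACVR1 (-0.23 in the additive fit); the cause was not tested. Of 43 named isoform features, 5 had enough uniquely assigned reads for a test.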

Other observations

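In metabolism the calls were split. Among 16 tested genes of serine, glycine and one-carbon metabolism 3 were called higher and 2 lower. The mitochondrial folate enzymes MTHFD2 and ALDH1L2 had 56 and 102 and 24 and 47 reads in control and azacytidine, while the methionine cycle genes MAT2B and MTRR had 48 and 14 and 87 and 33. In glycolysis 2 of 16 tested were called higher and 1 lower, beside 6.22% and 10.3% of all tested genes. The phosphofructokinase PFKP had 36 and 97 reads (log2 ratio 1.70, 1.15 to 2.31), GAPDH had 37 and 65, and the glucose carrier SLC2A1 had 74 and 21 (log2 ratio -1.51, -2.31 to -0.82). GAPDH has many processed copies and its count is uncertain. Of 21 tested genes of cholesterol synthesis, 0 were called in either direction by the exact binomial test.

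Among TGF-beta and BMP genes 3 of 13 tested were called lower and 1 higher. The antagonist follistatin (FST) had 70 and 2 reads, the latent binding protein LTBP1 65 and 8, and the signal carrier SMAD3 41 and 6. The receptor ACVR1 had 16 and 37 reads, and 126 and 31 in the pair with the TDP-43 guide. Among postsynaptic genes 3 of 22 tested were called lower and 0 higher, beside 10.3% and 6.22% of all tested genes. The glutamate receptor subunit GRIA4 had 113 and 28 reads, the scaffold DLG2 130 and 45, and HOMER1 74 and 27. Among adhesion genes the laminin receptor subunit ITGA6 had 57 and 7 reads, while ITGA3 had 17 and 31.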
